A study of Mus musculus with 4 samples.

Results

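Cyclin-dependent kinase (CDK) inhibitor genes were examined for occupancy by Dzip3 and Ring1B and for ubiquitylated histone H2A (ubH2A) in mouse embryonic stem (mES) cells. The genes were the 3 Cip/Kip genes Cdkn1a, Cdkn1b and Cdkn1c and the 4 INK4 genes Cdkn2a, Cdkn2b, Cdkn2c and Cdkn2d. They are 7 of the 22380 protein-coding genes annotated on mm9, and were chosen by name as loci known for control by Polycomb proteins. The rule uses no measured value, but earlier results of these data were known when it was set. Every listed peak within 100 kb of one of their transcription start sites (TSSs) was taken, which gave 15 of the 30047 peaks in the 4 lists. The data are ChIP-seq peak lists of E14 mES cells, with 1 library for Dzip3, 1 for Ring1B, 1 for ubH2A and 1 of input DNA. All 4 libraries came from the same cells, of strain 129/Ola at passage 3-5, grown without feeders in N2B27 medium with 2i + LIF. Here 2i stands for the MEK inhibitor PD0325901 at 1 µM together with CHIR99021 at 3 µM, an inhibitor of the kinase GSK3, and LIF, the cytokine that sustains self-renewal, was at 1000 U/ml. Cells were fixed in 1% formaldehyde for 10 min, and the antibodies were raised in rabbits by the authors. Fragmentation is described as shearing in the sample labels and as digestion with micrococcal nuclease in the methods of the study. The lists describe a single line in a single medium, and no IgG control is among the 4 libraries. The libraries hold DNA, so the label embryonic stem cell could not be checked by expression, and no value below says how strongly a gene was transcribed.

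CDK inhibitors bind cyclin-CDK complexes or the kinases themselves and hold cells before S phase. The Cip/Kip proteins act on several CDKs and the INK4 proteins on the CDKs that pair with D-type cyclins. Ring1B is the catalytic subunit of Polycomb repressive complex 1, a ubiquitin ligase that places a single ubiquitin on histone H2A, and Dzip3 is another ubiquitin ligase that acts on H2A. Polycomb occupancy in mES cells lies mainly at CpG islands of genes that are silent or little expressed, and the Cdkn2a-Cdkn2b locus is a textbook Polycomb target in cultured fibroblasts.

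Among the 7 genes, Ring1B lay at the TSS of Cdkn1c alone, and no gene had a Dzip3 peak within 100 kb. Ring1B peaks within 100 kb were listed for 4 of the 7 genes, namely Cdkn1a with 2 peaks, Cdkn1c with 8, Cdkn2c with 1 and Cdkn2d with 2. A Ring1B peak within that distance was listed for 50.3% of all protein-coding genes, so the count of 4 of 7 lay near the background. A Dzip3 peak within 100 kb was listed for 0 of the 7 genes, against 36.4% of all genes. ubH2A peaks were listed for 2 of the 7 genes, Cdkn1a and Cdkn1b with 1 peak each, against 39.3% of the genes on chromosomes with a complete ubH2A list. Input DNA peaks were listed for 0 of the 7 genes, against 21.0% of genes counted in the same way. Cdkn2a and Cdkn2b had no peak of any of the 4 lists in range. With 1 library for each target there is no replicate error, so none of these differences was tested. The plot of peak positions shows this arrangement.

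**Figure D1:**
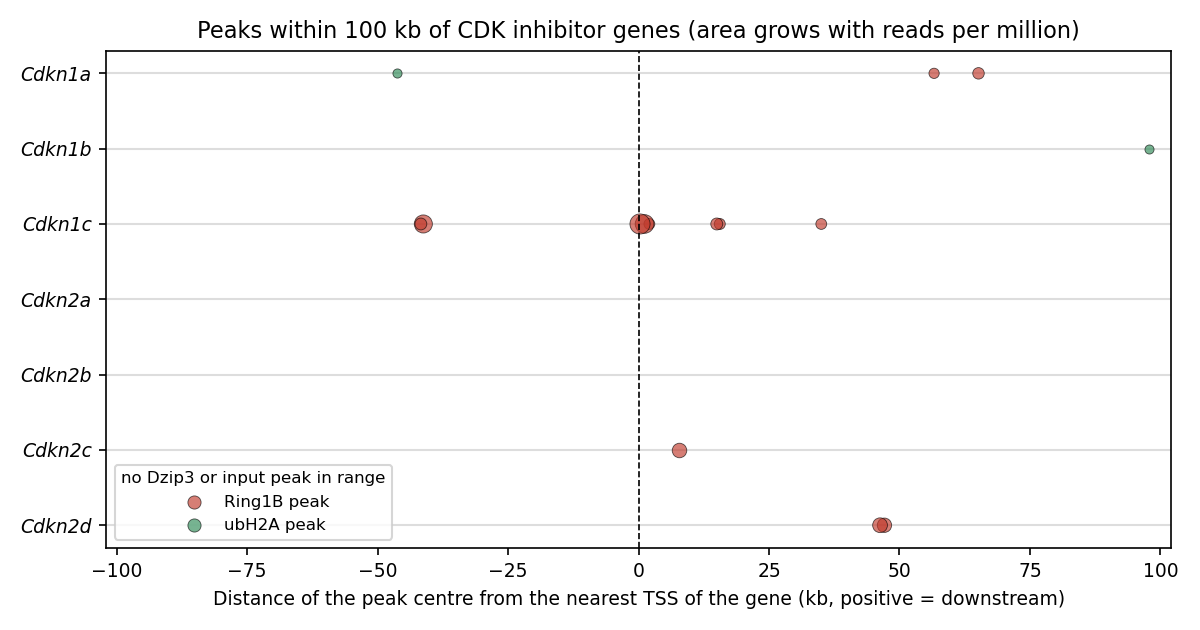
Peaks of the 4 lists within 100 kb of the 7 CDK inhibitor genes, with the distance of the peak centre from the nearest TSS of the gene in kb on the x axis and 1 line for each gene. Circles are Ring1B (red) and ubH2A (green) peaks and their area grows with the RPM of that library. Cdkn1c holds 8 of the 13 Ring1B peaks, 3 of them within 4 kb of its TSS, and no Dzip3 or input DNA peak lies in range of any gene.

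Reads were counted by the authors in each listed peak for all 4 libraries and are given here also as RPM, that is, reads for every M reads in the library. The library sizes are those that the listed heights in reads and in RPM imply, 53.3 M reads for the Dzip3 library with 6482 peaks, and 51.8 M reads for the Ring1B library with 10119 peaks. For ubH2A they imply 67.0 M reads, with 6642 peaks, and 48.3 M reads for input DNA, with 6804 peaks. These sizes are larger than the depth of uniquely mapped reads that the methods of the study state, and every RPM value and ratio below rests on them. The lowest height of a listed peak was 33 reads for Dzip3, 31 for Ring1B, 32 for ubH2A and 15 for input DNA, and sites below these heights are not detectable as peaks. Intervals in brackets are 95% intervals that cover counting error only. Where the input library has 0 reads, only the lower limit of the interval of the ratio is given.

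Cdkn1c encodes p57, the Cip/Kip inhibitor that is expressed from the maternal chromosome and restrains growth of the embryo. The gene lies at chr7:150644255-150646955 on the minus strand. One Ring1B peak at chr7:150646319-150647044 covered its TSS and reached into coding sequence, and a second at chr7:150645525-150646096 lay in coding sequence 0.859 kb downstream of the TSS. The stretches below show the base composition inside these peaks, which held the most Ring1B reads near the CDK inhibitor genes. Reads are listed for whole peaks only. The stretches were read from the mm9 genome on the strand of the gene, with each CG dinucleotide in capitals. The first is the first intron inside the peak over the TSS (chr7:150646622-150646757), since the untranslated bases on either side are not shown, and the second is the centre of the coding peak (chr7:150645661-150645960).
Cdkn1c first intron, Ring1B peak over the TSS: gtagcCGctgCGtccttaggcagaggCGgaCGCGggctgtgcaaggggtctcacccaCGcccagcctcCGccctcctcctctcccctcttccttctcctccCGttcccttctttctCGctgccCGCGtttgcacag
Cdkn1c coding sequence, Ring1B peak: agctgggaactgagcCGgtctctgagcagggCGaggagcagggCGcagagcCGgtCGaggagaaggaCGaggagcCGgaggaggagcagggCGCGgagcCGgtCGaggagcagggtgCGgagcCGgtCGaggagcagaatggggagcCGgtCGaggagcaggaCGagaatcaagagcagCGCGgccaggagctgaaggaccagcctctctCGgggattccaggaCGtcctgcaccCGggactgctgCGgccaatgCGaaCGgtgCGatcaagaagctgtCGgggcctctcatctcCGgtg
The intron stretch holds 11 CG dinucleotides in 136 bases and the coding stretch 28 in 300 bases.

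In the peak over the Cdkn1c TSS, 323 Ring1B reads were listed beside 45 Dzip3, 72 ubH2A and 4 input DNA reads. Scaled to library size, these are 6.24 RPM for Ring1B [5.58 to 6.96], 0.845 for Dzip3 [0.616 to 1.13], 1.07 for ubH2A [0.840 to 1.35] and 0.0828 for input DNA [0.0226 to 0.212]. Ring1B therefore stood 75.3-fold over input DNA [29.1 to 278], Dzip3 10.2-fold [3.72 to 39.0] and ubH2A 13-fold [4.85 to 48.9]. These ratios rest on 4 input DNA reads, or 0.114 RPM per kb. The median of input DNA was 0.289 RPM per kb in other Ring1B peaks without an input DNA peak. Dzip3 here was 1.17 RPM per kb, below the median of 1.97 in those peaks. The Ring1B library was the highest of the 4, and Dzip3 and ubH2A exceeded input DNA without a peak of their own being listed. The coding peak held 275 Ring1B, 30 Dzip3, 42 ubH2A and 4 input DNA reads, with Ring1B at 5.31 RPM [4.70 to 5.98]. Its greatest height of 83 reads was the highest of the 13 Ring1B peaks near the CDK inhibitor genes, and 88.1% of all Ring1B peaks were not higher. The last Ring1B peak within the gene, at chr7:150644749-150645018 in the 3′ untranslated exon, held 78 Ring1B, 13 Dzip3, 6 ubH2A and 0 input DNA reads.

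The 3 peaks covered 1479 of the 2701 bp of Cdkn1c, or 54.8%. Together they held 676 Ring1B reads, 78.8-fold over input DNA [39.8 to 183]. Among the 2169 genes with a Ring1B peak within 4 kb that overlapped no input DNA peak, 305 (14.1%) had as many Ring1B reads within that distance or more, and the median was 121 reads. A Ring1B peak within 4 kb of a TSS was listed for 10.0% of all protein-coding genes, and 3 or more such peaks for 1.89%. Within 100 kb, 2.62% of genes had 8 or more Ring1B peaks. The number of peaks depends on where the peak caller ended one and began the next, and 13 Ring1B peaks became 8 when peaks within 1 kb of each other were merged.

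The other 5 Ring1B peaks within 100 kb of Cdkn1c lay on both sides of the gene, in a domain of imprinted genes that also holds Phlda2 and Kcnq1. Upstream, a peak at chr7:150687916-150688484 covered the TSS of Phlda2, an imprinted gene that limits growth of the placenta, and a neighbour at chr7:150688539-150688801 began 93 bp from it. The peak over the Phlda2 TSS held 257 Ring1B, 19 Dzip3, 30 ubH2A and 0 input DNA reads, and the neighbour 98, 24, 19 and 0. With 0 input DNA reads in the Phlda2 pair, the lower 95% limit of the ratio to input DNA was 89.3-fold for Ring1B, 10.1-fold for Dzip3 and 9.21-fold for ubH2A. Both peaks lay nearer to Phlda2 than to Cdkn1c, 41.0 and 41.6 kb from the Cdkn1c TSS.

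Downstream of Cdkn1c, 1 peak at chr7:150611830-150612060 lay in the last exon of Kcnq1, which encodes a potassium channel, 34.9 kb from the Cdkn1c TSS. A pair at chr7:150631219-150631571 and chr7:150631803-150632139 lay between annotated genes, 15.4 and 14.8 kb from that TSS. The Kcnq1 exon peak held 78 Ring1B, 29 Dzip3, 8 ubH2A and 3 input DNA reads. The intergenic pair held 82 and 100 Ring1B reads, 17 and 32 Dzip3 reads, 7 and 6 ubH2A reads, and 4 and 3 input DNA reads. These downstream peaks carried Ring1B but little ubH2A. Over the 3 of them Ring1B was 24.3-fold over input DNA [13 to 51.2] while ubH2A was 1.51-fold [0.682 to 3.60], an interval that includes 1. In the 3 peaks within Cdkn1c ubH2A was 10.8-fold over input DNA [5.31 to 25.6], and the 2 intervals did not overlap. Per length, ubH2A was 1.14 RPM per kb within Cdkn1c and 0.341 downstream. Input DNA went the other way, with 0.106 and 0.226 RPM per kb from 8 and 10 reads, and so widens the contrast of the ratios. The ubH2A sum within Cdkn1c rests on the peak over the TSS and the coding peak. The peak in the 3′ untranslated region had 0.333 RPM per kb of ubH2A, among the 0.266, 0.297 and 0.519 RPM per kb of the downstream peaks, and its ratio to input DNA had a lower limit of 0.848.

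Cdkn2c encodes p18, an INK4 inhibitor of Cdk4 and Cdk6. The gene lies at chr4:109333481-109339794 on the minus strand and had 1 Ring1B peak, at chr4:109330092-109330495, 7.48 kb downstream of its nearer TSS and beyond the end of the gene. The peak covered the TSS of the long noncoding RNA 9630013D21Rik, and Cdkn2c was the protein-coding gene with the nearest TSS. Its centre (chr4:109330144-109330443), on the minus strand, is shown because it was the Ring1B peak nearest to a TSS of any INK4 gene.
Cdkn2c, Ring1B peak at 9630013D21Rik: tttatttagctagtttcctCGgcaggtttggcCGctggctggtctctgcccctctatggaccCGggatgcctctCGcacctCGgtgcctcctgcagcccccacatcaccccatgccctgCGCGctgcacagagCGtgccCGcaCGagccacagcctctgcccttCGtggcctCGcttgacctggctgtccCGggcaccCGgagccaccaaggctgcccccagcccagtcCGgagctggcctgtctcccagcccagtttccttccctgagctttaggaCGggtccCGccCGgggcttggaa
The stretch holds 18 CG dinucleotides in 300 bases. The peak held 158 Ring1B, 11 Dzip3, 11 ubH2A and 1 input DNA reads. Ring1B was at 3.05 RPM [2.59 to 3.57] and Dzip3 at 0.206 [0.103 to 0.369]. The ratio of Ring1B to input DNA was 147 [26.1 to 5859], with a wide interval because it rests on 1 input read. A Ring1B peak nearer to a TSS than this was found for 12.5% of all genes.

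Cdkn2d encodes p19Ink4d, and lies at chr9:21092907-21095653 on the minus strand. Its Ring1B peaks, at chr9:21048303-21048770 and chr9:21049155-21049608, overlapped exon sequence of S1pr5, which encodes a receptor for sphingosine 1-phosphate, 46.9 and 46.0 kb downstream of the Cdkn2d TSS. The first held 154 Ring1B, 36 Dzip3, 59 ubH2A and 5 input DNA reads, and the second 164, 47, 51 and 0. In sum Ring1B was 59.3-fold over input DNA [25.2 to 184], ubH2A 15.9-fold [6.59 to 49.8] and Dzip3 15.1-fold [6.20 to 47.6]. Both peaks had S1pr5 as the nearest TSS, the closer of them at 3279 bp.

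Cdkn1a encodes p21, a Cip/Kip inhibitor induced by p53. The gene lies at chr17:29227924-29237667 on the plus strand with 3 annotated TSSs, and its Ring1B peaks lay 56.5 and 65 kb downstream. The nearer, at chr17:29291673-29291883, was outside annotated genes with Rab44 as the nearest protein-coding TSS, and the other, at chr17:29300151-29300435, was in an intron of Cpne5, which encodes a calcium-dependent membrane-binding protein. The nearer peak held 68 Ring1B, 33 Dzip3, 18 ubH2A and 2 input DNA reads, and the other 91, 13, 41 and 5. Ring1B was at 1.31 RPM [1.02 to 1.67] and 1.76 RPM [1.42 to 2.16]. These peaks are 210 and 284 bp long, and per length they had 6.26 and 6.19 RPM per kb of Ring1B, against 8.61 in the 725 bp peak over the Cdkn1c TSS. The Cpne5 peak was the only 1 of the 13 whose interval of Dzip3 over input DNA, 2.36-fold [0.789 to 8.45], included 1.

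ubH2A peaks lay near Cdkn1a and Cdkn1b, far from both TSSs. The Cdkn1a peak at chr17:29181502-29181702 was 46.2 kb upstream, between genes and 3890 bp from the TSS of Srsf3, which encodes a splicing factor. It held 64 ubH2A, 35 Ring1B, 12 Dzip3 and 2 input DNA reads, so ubH2A was 23.1-fold over input DNA [6.13 to 194] and Ring1B 16.3-fold [4.19 to 140.1]. Cdkn1b encodes p27, the Cip/Kip inhibitor that keeps cells quiescent, and lies at chr6:134870419-134875531 on the plus strand. Its ubH2A peak at chr6:134968171-134968371 was 97.8 kb downstream, in coding sequence of the RNA helicase gene Ddx47 and 647 bp from the Ddx47 TSS. It held 63 ubH2A, 20 Ring1B, 18 Dzip3 and 8 input DNA reads, with ubH2A 5.67-fold over input DNA [2.71 to 13.7]. Both peaks had the lowest height in the ubH2A list, 32 reads, which 9.32% of ubH2A peaks shared. The Cdkn1a peak is shown on the plus strand because neither of these ubH2A peaks was rich in CG, and it holds 1 CG in 201 bases.
Cdkn1a, ubH2A peak: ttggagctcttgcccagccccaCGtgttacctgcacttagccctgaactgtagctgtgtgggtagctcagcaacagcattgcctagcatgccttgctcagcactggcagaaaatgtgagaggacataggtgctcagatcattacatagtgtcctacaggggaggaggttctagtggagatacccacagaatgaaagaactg

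No Dzip3 peak lay within 100 kb of a CDK inhibitor gene, and the nearest was 109.7 kb from a Cdkn1a TSS, at chr17:29344858-29345058 in an intron of Cpne5. Its plus strand is shown because it is the Dzip3 site closest to any of the 7 genes.
Cdkn1a, nearest Dzip3 peak: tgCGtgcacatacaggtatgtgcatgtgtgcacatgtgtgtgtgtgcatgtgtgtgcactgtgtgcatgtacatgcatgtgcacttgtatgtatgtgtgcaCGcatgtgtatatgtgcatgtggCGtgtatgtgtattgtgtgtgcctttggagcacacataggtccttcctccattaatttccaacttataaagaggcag
The sequence has long runs of alternating T and G and holds 3 CG dinucleotides. It held 43 Dzip3, 40 ubH2A, 25 Ring1B and 1 input DNA reads. The next gene by distance was Cdkn2c, with its nearest Dzip3 peak 122 kb away, and an input DNA peak covered 84.0% of that peak. For the others the nearest Dzip3 peak was 209 kb from Cdkn1b, 301 kb from Cdkn1c, 327 kb from Cdkn2b, 338 kb from Cdkn2d and 343 kb from Cdkn2a. The median over all protein-coding genes was 163 kb, so 5 of the 7 genes lay farther from a Dzip3 peak than the median gene and Cdkn1a and Cdkn2c lay nearer. Close to the limit of 100 kb were the Cdkn1b ubH2A peak inside it and, outside it, this Cdkn1a Dzip3 peak and a ubH2A peak 116 kb from Cdkn1c.

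Cdkn2a, which encodes p16Ink4a and Arf, and Cdkn2b, which encodes p15, lie next to each other on the minus strand of chromosome 4, at chr4:88920377-88940557 and chr4:88952198-88956941, with a gap of 11641 bp. They share their neighbourhood and count as 1 locus for peaks at this distance. Their nearest Ring1B peak was the same, 477 kb from Cdkn2a and 505 kb from Cdkn2b. A Ring1B peak nearer to a TSS was found for 88.5% and 89.4% of all genes, so this locus lay among the genes farthest from Ring1B. Their nearest ubH2A peak was 481 and 510.2 kb away. Reads are listed only inside peaks, so the lists give no read value at these promoters. The median distance from a gene to a Ring1B peak was 98.8 kb, and Cdkn1b, with its nearest Ring1B peak at 125 kb, was also beyond it.

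**Figure D2:**
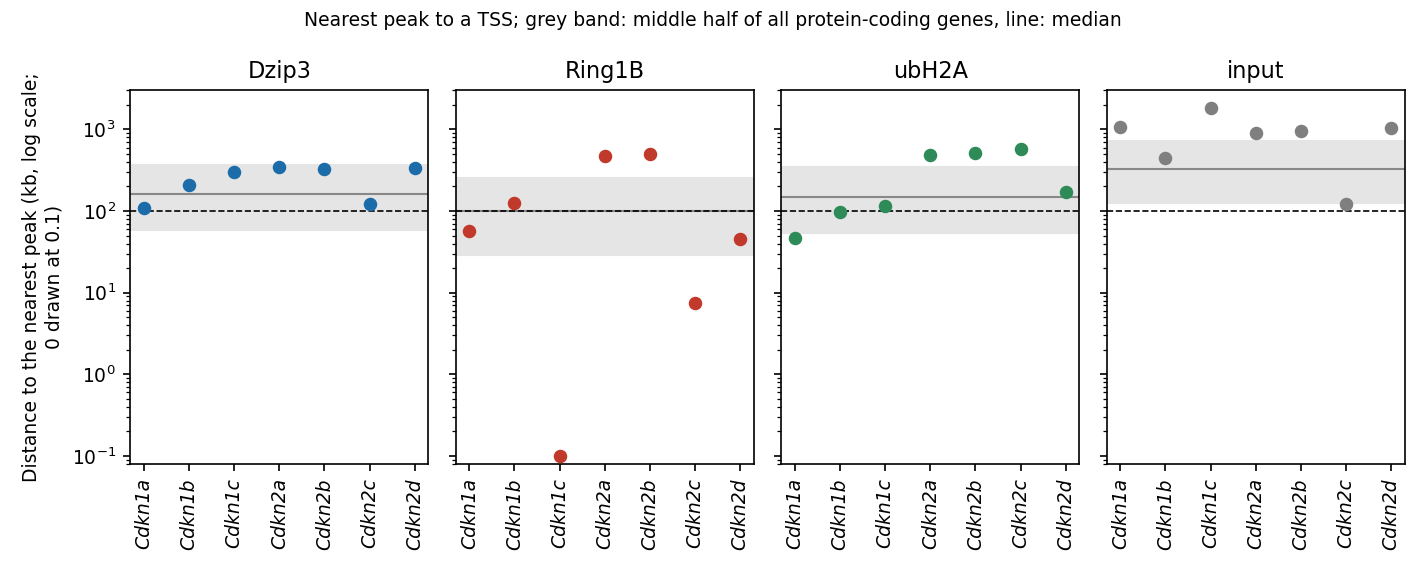
Distance from each CDK inhibitor gene to the nearest peak of each list in kb on a log scale, with a distance of 0 drawn at the bottom, and with the grey band and grey line giving the range from the 25th to the 75th percentile and the median of all protein-coding genes. The dashed line marks 100 kb. For Dzip3 all 7 points lie above it, from 109.7 to 343 kb, while for Ring1B Cdkn1c is at 0, Cdkn2c at 7.48 kb and Cdkn2a and Cdkn2b at 477 and 505 kb.

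The bases before these promoters differ in CG content. To show this, the 200 bases upstream of a TSS are given on the strand of the gene for 3 genes without a Ring1B peak, at chr4:88928097-88928296 for the p16Ink4a start of Cdkn2a, at chr4:88956942-88957141 for Cdkn2b and at chr6:134870219-134870418 for Cdkn1b.
Cdkn2a: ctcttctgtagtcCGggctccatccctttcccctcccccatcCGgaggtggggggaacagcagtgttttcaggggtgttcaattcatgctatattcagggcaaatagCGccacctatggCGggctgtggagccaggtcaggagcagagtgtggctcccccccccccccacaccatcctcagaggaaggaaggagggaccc
Cdkn2b: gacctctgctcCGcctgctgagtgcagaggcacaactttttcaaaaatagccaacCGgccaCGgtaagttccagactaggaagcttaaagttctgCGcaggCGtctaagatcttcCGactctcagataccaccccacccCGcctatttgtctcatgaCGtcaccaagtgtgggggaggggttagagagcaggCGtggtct
Cdkn1b: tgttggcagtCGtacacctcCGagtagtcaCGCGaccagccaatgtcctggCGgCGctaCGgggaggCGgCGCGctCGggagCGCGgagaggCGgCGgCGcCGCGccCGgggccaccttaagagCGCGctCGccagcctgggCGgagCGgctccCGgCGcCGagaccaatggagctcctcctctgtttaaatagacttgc
They hold 4, 9 and 27 CG dinucleotides. In the 200 bases before the 5′ end of the gene, the median over all 22380 protein-coding genes was 7, and 90.4% of them held at least 1 CG. The Cdkn2a stretch lies before a start inside the gene and not before its 5′ end, so it is not measured alike.

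In windows of 1000 bp around the 5′ end of the gene, 6 of the 7 genes were CpG-rich, meaning a GC content of at least 50% and an observed over expected CpG of at least 0.6, against 44.2% of all genes. The exception was Cdkn1a, with 47.3% GC and 0.126, although the window of its second TSS passed with 58.5% GC and 0.619. Observed over expected CpG was 0.881 at Cdkn1c, which carried Ring1B. It was as high or higher at genes without a Ring1B peak in range, namely 0.907 at Cdkn1b and 0.983 at the Arf start of Cdkn2a, and lower at Cdkn2b with 0.744. The p16Ink4a start of Cdkn2a, with 0.538, was not CpG-rich. Among the 7 genes a CpG-rich start thus occurred both with and without a listed Ring1B peak at the TSS. With only 1 gene on one side, a relation of CpG content to Ring1B was not tested. Over all genes, 13.7% of those with a CpG-rich window and 7.11% of the others had a Ring1B peak within 4 kb.

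The Ring1B peaks themselves were CpG-rich in 8 of 13, or 61.5%, against 27.9% of all Ring1B peaks and 33.0% of those that overlapped no input DNA peak. Of the 8, 6 belonged to Cdkn1c and 2 to Cdkn2d. The highest observed over expected CpG was 1.05 in the peak over the Phlda2 TSS, and the lowest was 0.0561 in the Kcnq1 exon peak, which held 1 CG. The ubH2A peaks had 0.0761 near Cdkn1a and 0.392 near Cdkn1b, and neither was CpG-rich. These peaks lie in few places and share neighbours, so the shares are descriptions.

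**Figure D3:**
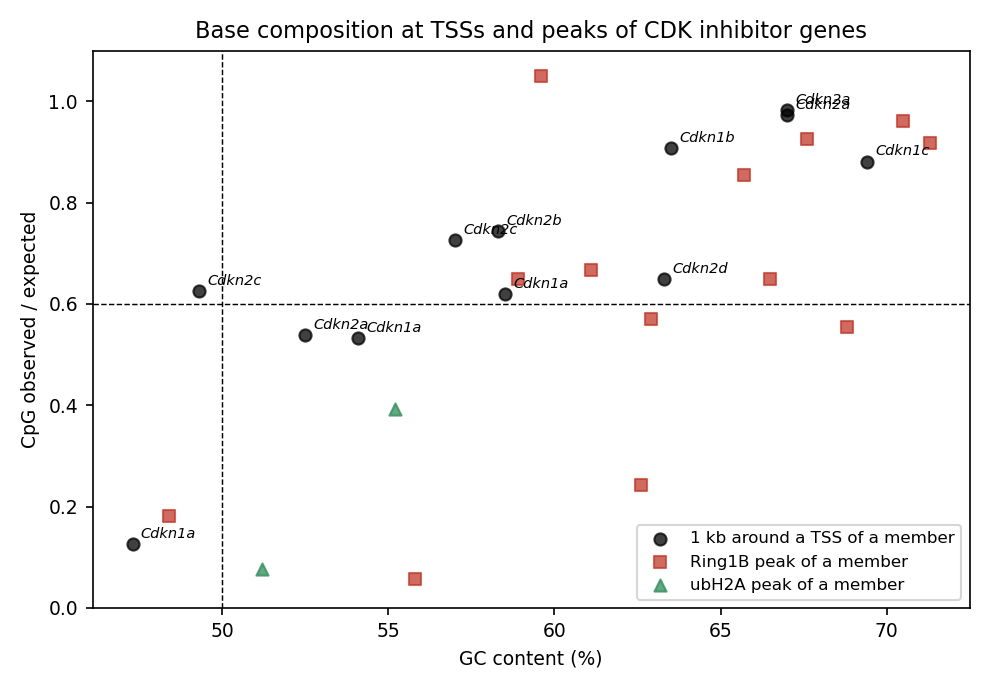
GC content in percent on the x axis and observed over expected CpG on the y axis for the 12 annotated TSSs (1000 bp windows, black circles with gene names), the 13 Ring1B peaks (red squares) and the 2 ubH2A peaks (green triangles) of the CDK inhibitor genes. Dashed lines mark 50% and 0.6, and 8 of the 12 TSS windows, 8 of the 13 Ring1B peaks and 0 of the 2 ubH2A peaks lie above both.

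None of the 13 Ring1B peaks overlapped a peak of another list. For Dzip3 and input DNA this only repeats that no such peak lay in range, and for ubH2A only 2 peaks were in range. Among all Ring1B peaks, 32.5% overlapped a Dzip3 peak, 33.2% a ubH2A peak and 16.2% an input DNA peak. In each of the 13, Ring1B exceeded Dzip3 in RPM with intervals that did not overlap, which taking the peaks from the Ring1B list favours. Dzip3 reads were nevertheless above input DNA, with 349 Dzip3 and 31 input DNA reads in the sum of the 13 peaks, a ratio of 10.2 [7.06 to 15.3]. The ratio was 58.0 for Ring1B [40.7 to 85.6] and 8.60 for ubH2A [5.95 to 12.8]. Taken peak by peak, the interval of the ratio to input DNA lay above 1 in 12 of 13 for Dzip3 and in 9 of 13 for ubH2A. That count was not made over all Ring1B peaks. In the other Ring1B peaks without an input DNA peak, median Dzip3 and ubH2A, 1.97 and 1.64 RPM per kb, also exceeded input DNA, 0.289. Values above input DNA are thus not particular to the 13 peaks.

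Per length, Ring1B in these peaks was at the upper side of other Ring1B peaks, and Dzip3 was at the lower side. The median was 6.55 RPM per kb for Ring1B (range 4.50 to 9.30), against 5.99 in the other 8468 Ring1B peaks without an input DNA peak. From the 25th to the 75th percentile, Ring1B ranged from 6.19 to 7.57 in the 13 peaks and from 5.45 to 6.79 in the others. For Dzip3 the median was 1.17 RPM per kb against 1.97 in the other peaks, whose range from the 25th to the 75th percentile was 0.958 to 3.78. For ubH2A it was 1.08 against 1.64 (0.881 to 3.07). Input DNA moved the same way, with a median of 0.145 RPM per kb in the 13 peaks and 0.289 in the others, and its part in these differences was not tested. Of the scaled Dzip3 and Ring1B reads in the 13 peaks, Dzip3 made up 15.0% [13.5 to 16.5]. By gene the share was 13.6% at Cdkn1c [11.9 to 15.4], 21.9% at Cdkn1a [16.5 to 28.2], 6.34% at Cdkn2c [3.20 to 11.1] and 20.2% at Cdkn2d [16.4 to 24.5]. The Cdkn1c peaks were not alike, with 22.6% [18.3 to 27.4] in the 3 downstream peaks and 10.5% [7.72 to 13.9] in the Phlda2 pair. The value for Cdkn2c is that of a single peak, while the others pool peaks. Its interval overlapped those of the Cdkn1c peaks within 4 kb, 11.2% [9.10 to 13.7], and of the peak over the Phlda2 TSS, 6.70% [4.08 to 10.3]. Over the other Ring1B peaks without an input DNA peak the median share was 24.7%, and 11 of the 13 peaks lay below it. The share falls with more Ring1B as well as with less Dzip3. These other peaks include ones that overlap a Dzip3 or ubH2A peak, and none of the 13 does. Lower Dzip3 and ubH2A values in the 13 are therefore favoured by the absence of such peaks and are not a separate result.

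**Figure D4:**
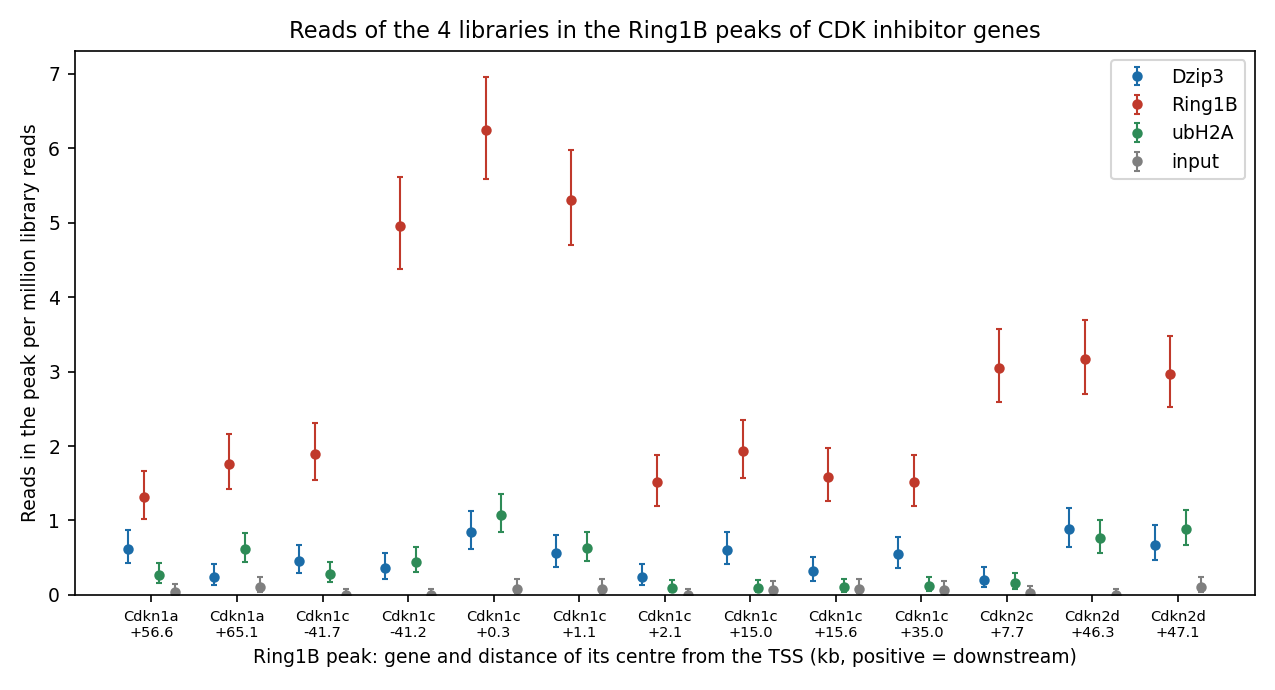
RPM of Dzip3, Ring1B, ubH2A and input DNA in each of the 13 Ring1B peaks, with the gene and the distance of the peak centre from its TSS in kb on the x axis and 95% intervals for counting error as bars. Ring1B is highest in every peak and reaches 6.24 RPM over the Cdkn1c TSS and 4.96 RPM over the Phlda2 TSS, while Dzip3 and ubH2A stay at or below 0.882 and 1.07 RPM.

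Other genes of the G1/S transition were counted in the same way for comparison. Of 24 such genes (cyclins, CDKs, the Rb and E2F families, Trp53, Mdm2 and Myc), 8 (33.3%) had a Dzip3 peak and 10 (41.7%) a Ring1B peak within 100 kb, and 8 of the 18 on complete chromosomes (44.4%) had a ubH2A peak. The shares of all genes were 36.4% for Dzip3, 50.3% for Ring1B and 39.3% for ubH2A, so these counts lay near the background. Within 4 kb, 3 (12.5%) had Ring1B and 0 had Dzip3, against 10.0% and 3.13% of all genes. The 3 with Ring1B were Ccnd1, Ccnd2 and Cdk6, which encode D-type cyclins and a kinase that they activate. At Ccnd2 there were 5 peaks of Ring1B within 4 kb, and the peak with most Ring1B reads was 1010 bp long, at chr6:127100157-127101167 with 491 Ring1B, 60 Dzip3, 58 ubH2A and 14 input DNA reads. Ccnd1 had 1 peak with 58 Ring1B reads and Cdk6 1 peak with 78. The Hox genes, taken as known Polycomb targets, had a Ring1B peak within 4 kb for 33 of 40 (82.5%). A Dzip3 peak within 100 kb was listed for 17 of 40 (42.5%), against 36.4% of all genes. A ubH2A peak within 100 kb was listed for 4 of the 30 on complete chromosomes (13.3%), against 39.3% of genes counted alike. Within 4 kb the ubH2A count was 0 of 30, against 3.35%. Absence from the ubH2A list was thus common at these Polycomb targets too. The 40 are gene entries of the annotation, under 39 Hox gene names. Hox genes lie side by side in clusters, so 1 peak can count for several of them and the 40 are not separate loci. The CDK inhibitor genes, with 1 of 7 within 4 kb, lay near the background of 10.0% and not near the Hox genes.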

How the data were processed

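The 4 deposited peak lists were made by the authors, who aligned reads to mm9 with the Illumina Analysis Pipeline and called peaks on each library by itself with the Partek Genomics Suite. For each peak the authors deposited the count of reads of all 4 libraries, the height in reads and in RPM, and the percent of its length under peaks of the other lists. Of the p-values deposited by the authors, that against input DNA served only to rank peaks, and their ratio (fold) to input DNA was not used. Normalization to library size was part of the RPM and fold values as deposited. The build is also named in the processing notes of the submitters.

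Library sizes were computed from listed heights in reads and RPM, and reads were scaled with them. Peak positions were used as listed. Genes, TSSs and features come from the GENCODE annotation of the same build (Ensembl release 65), and sequence from the mm9 genome. A peak was assigned to every gene with a TSS within 100 kb, the distance in the methods of the study. From the list for ubH2A and from that for input DNA, 1 row that ran into another was left out, and the backgrounds for these lists use the 16 chromosomes that are complete, which include those of all 7 genes. Overlap means at least 1 bp. Intervals are exact Poisson intervals for reads, exact binomial intervals for shares and conditional binomial intervals for ratios.

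The 7 genes and the comparison lists were chosen with earlier results of these data known. All 7 genes are named with every peak in range, of the G1/S genes those with Ring1B within 4 kb are named, and Hox genes are counted only. The sequences of the peak over the Cdkn1c TSS and of the nearest Dzip3 peak were set by rule, and the other sequences and the CpG measures were chosen after the values were seen. With a single library per target, no p-value was computed. Alternatives were distances of 10 kb and 4 kb, the stronger 50% of each list, the 5′ end of the gene only, the nearest gene only, peaks within 1 kb merged, input-overlapping peaks left out and reads not scaled. The functions were tested on simulated data. The software was numpy 2.4.6 and scipy 1.17.1 for intervals, pandas 2.3.3 for tables and matplotlib 3.10.9 for plots, under Python 3.11.15.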

Additional observations from a re-analysis of the deposited data

How the results depend on the processing

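The counts at the CDK inhibitor genes depended on the distance. At 10 kb, 2 genes and 4 peaks remained for Ring1B (14.2% of all genes) and 0 genes and 0 peaks for ubH2A (6.79%). At 4 kb, 1 gene and 3 peaks remained for Ring1B and 0 genes and 0 peaks for ubH2A (3.35%). Counting a peak for the nearest gene only left 2 genes for Ring1B (19.5%) and 0 for ubH2A (14.2%). In the stronger 50% of the list, ranked by the p-value against input DNA and not by height, 1 gene and 1 peak remained for ubH2A (29.4%). Merging peaks within 1 kb gave 8 Ring1B peaks. At 200 kb, an alternative chosen after seeing the data, 2 genes and 6 peaks were counted for Dzip3 (56.5%), 4 genes and 5 peaks for ubH2A (59.1%) and 1 gene and 1 peak for input DNA (35.6%). The counts of 0 for Dzip3 and input DNA could not change under the other alternatives, which only remove or merge peaks. Of all genes, 6.37% had a Dzip3 peak within 10 kb, 3.13% within 4 kb and 12.9% as the nearest gene. The Dzip3 share of 15.0% was 11.2% within 4 kb, where only Cdkn1c has peaks, and 17.6% with Cdkn1c left out, also an alternative added later. No paired analysis was possible because each target has 1 library. Few input reads per peak, from 0 to 5 in the Ring1B peaks and 2 and 8 in the ubH2A peaks, limit the ratios to input DNA, and sites below the lowest listed heights were not detectable.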
